A study of Mus musculus with 23 samples.

Results

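The 10 genes described here encode transporters of the blood-brain barrier, the lining of brain capillaries: Slc19a3, Slc2a1, Slco1a4, Slco1c1, Slc7a5, Slc16a1, Slc38a5, Mfsd2a, Abcb1a and Abcg2. They were selected by name as transporters of brain endothelium, with the thiamine transporter Slc19a3 among them, and with earlier results of these same libraries known. Differences of these genes between groups are therefore a description and support nothing on their own. All 10 were found among the 24411 gene symbols of the count table, and all 10 passed the filter on low counts in every comparison. RNA was sequenced from cortical cells of 23 mice at postnatal day 70, which per the labels were male. The cells had been pulled out of the dissociated tissue with magnetic beads against ACSA-2, an antigen on the surface of astrocytes. All mice carried the Aldh7a1 Flox/Flox alleles, and all received 4-hydroxytamoxifen on postnatal days 3 to 4.

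The groups were ConAstro (no Cre, control diet, n = 4), cKOAstro (Slc1a3-CreER/+, control diet, n = 7), SFN-fed ConAstro (no Cre, sulforaphane diet, n = 5) and SFN-fed cKOAstro (Slc1a3-CreER/+, sulforaphane diet, n = 7). Diets ran from postnatal day 21 to 70. Sulforaphane (SFN) is a compound of broccoli sprouts that activates NRF2, a transcription factor of the antioxidant response. Slc1a3 drives CreER in astrocytes, so the deletion was not aimed at the vessel cells in which most of these transporters are known to work. The Slc1a3-CreER allele itself is carried by the knockout groups only, and its effect cannot be told apart from that of the deletion.

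Total counts ran from 74771451 to 84049525 in ConAstro, 107847897 to 391701247 in cKOAstro, 46890715 to 219904257 in SFN-fed ConAstro and 86276988 to 140464734 in SFN-fed cKOAstro. Levels are given as CPM, the count of a gene scaled to a common library size. Aldh7a1, the deleted gene, was at 207 CPM or more in every ConAstro library and at 77.2 CPM or less in every cKOAstro library. Its levels went against the labels in 2 libraries of the sulforaphane diet: 55.7 CPM for replicate 1 of those labelled SFN-fed ConAstro and 222 CPM for replicate 2 of those labelled SFN-fed cKOAstro, where the rest of the groups ran from 177 to 226 CPM and from 43.0 to 56.5 CPM. Both libraries were kept in their labelled groups, and values without them are given beside the comparisons of the sulforaphane-fed groups. The library labelled cKOAstro replicate 2 held 1541 CPM of Xist, the transcript of the inactive X chromosome, against at most 0.706 CPM in any other library. Library names came in a numbered series and an Astro series, and the Astro series held cKOAstro replicates 2 and 4, SFN-fed ConAstro replicate 1 and SFN-fed cKOAstro replicates 4, 5 and 6. No ConAstro library carried an Astro name.

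Endothelial cells of brain capillaries are sealed by tight junctions, so nutrients cross them through carriers of the solute carrier (SLC) families. Pumps of the ATP-binding cassette (ABC) family send lipophilic compounds back into the blood. Several of the carriers also act in other brain cells: Slc16a1 moves lactate in glia, and Slco1c1 moves thyroid hormone into astrocytes as well as across the barrier. The bead-captured cells were a mixture. The 10 astrocyte markers, among them Aqp4 and Slc1a2, summed to between 12265 and 24233 CPM per library. The 22 endothelial markers, among them Cldn5, Pecam1 and Tie1, summed to between 399 and 1336 CPM, with none at 0 in any library. Oligodendrocyte markers summed to between 23788 and 61051 CPM, microglia markers to between 362 and 3992 CPM and choroid plexus markers to between 12.8 and 4434 CPM. In such bulk RNA, fewer cells of a type and less RNA per cell cannot be told apart.

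Because the diet under study activates NRF2, promoters were searched for the core of the antioxidant response element that NRF2 binds (TGACNNNGC). The E-box (CACGTG), bound by basic helix-loop-helix factors, and a core bound by ETS factors (CCGGAAGT) were searched as well. RefSeq promoters on GRCm38.p6, from 250 bases before to 50 after the start, were matched for 9 of the 10 genes, and both strands were read. The promoter of Slc19a3 is shown as that of the thiamine carrier, and those of Abcb1a and Slc16a1 because they were the ones that held the antioxidant core. Capitals mark the matches.

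Slc19a3, minus strand, chr1:83038399-83038698, no match to any of the 3 motifs:
Slc19a3 promoter: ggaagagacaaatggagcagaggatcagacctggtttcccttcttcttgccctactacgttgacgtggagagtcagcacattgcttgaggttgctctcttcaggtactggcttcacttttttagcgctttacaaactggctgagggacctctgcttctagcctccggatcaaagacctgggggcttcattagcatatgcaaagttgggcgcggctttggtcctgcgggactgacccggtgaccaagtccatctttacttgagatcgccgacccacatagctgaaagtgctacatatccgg

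Abcb1a, plus strand, chr5:8566841-8567140, antioxidant core on the reverse strand, 26 to 34 bases after the start:
Abcb1a promoter: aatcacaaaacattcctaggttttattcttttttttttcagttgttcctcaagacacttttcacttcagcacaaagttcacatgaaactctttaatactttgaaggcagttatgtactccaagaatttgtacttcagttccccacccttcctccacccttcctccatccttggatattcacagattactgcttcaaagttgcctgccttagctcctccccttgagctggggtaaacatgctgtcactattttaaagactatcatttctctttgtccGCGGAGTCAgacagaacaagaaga

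Slc16a1, plus strand, chr3:104638414-104638713, antioxidant core on the reverse strand, at positions −207 to −199 from the start, running into an E-box at −200 to −195:
Slc16a1 promoter: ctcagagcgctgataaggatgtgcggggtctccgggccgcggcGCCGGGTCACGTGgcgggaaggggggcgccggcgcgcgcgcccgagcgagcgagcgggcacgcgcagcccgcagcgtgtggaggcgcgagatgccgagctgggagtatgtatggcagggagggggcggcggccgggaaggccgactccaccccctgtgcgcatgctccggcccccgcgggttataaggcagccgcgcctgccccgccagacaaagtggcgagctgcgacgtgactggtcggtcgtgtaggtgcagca

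Over the 32817 promoter windows of this length, 12.4% held the antioxidant core, 7.15% the E-box and 3.89% the ETS core. Among the other members, Slco1c1 and Slc38a5 each held an E-box, and the ETS core was in no promoter window of the 9 genes. The RefSeq start of Abcb1a lies 92986 bases from the start of its annotated gene. Slc19a3 lies on chr1:83012523-83038448 (minus strand, GRCm38), Abcb1a on chr5:8660077-8748575 and Mfsd2a on chr4:122946850-122961188. Exons of 2 members share bases with another gene on the opposite strand: 105 bases of Slc2a1 (2.99%) with Gm12868 and 553 bases of Abcb1a (10.1%) with Gm42686. Reads there cannot be assigned with certainty, since the strand setting of the counting was not given in the sources used here.

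Scaled to exon length, the transporters covered a wide range in ConAstro. Slc2a1, the glucose transporter GLUT1, was highest at 133 ± 24.8 CPM per kilobase of exon (SD, n = 4). Slco1c1, the thyroxine carrier, followed at 88.6 ± 13.8, and Mfsd2a, which carries lysophosphatidylcholine with docosahexaenoic acid, at 60.6 ± 11.5 CPM per kilobase. Slc7a5, the large neutral amino acid carrier LAT1, was at 35.5 ± 4.31, and Slc16a1, the monocarboxylate carrier MCT1, was at 32.9 ± 3.05. The efflux pump gene Abcb1a (P-glycoprotein) was at 10.4 ± 4.21 and the organic anion carrier Slco1a4 at 9.52 ± 3.68 CPM per kilobase. The lowest were Slc38a5, a glutamine carrier, at 2.13 ± 1.05, the pump gene Abcg2 (BCRP) at 1.90 ± 0.354 and Slc19a3 at 1.65 ± 0.691. Neighbours in this order had overlapping ConAstro ranges except at 3 steps, from Mfsd2a to Slc7a5, from Slc16a1 to Abcb1a and from Slco1a4 to Slc38a5.

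**Figure D1:**
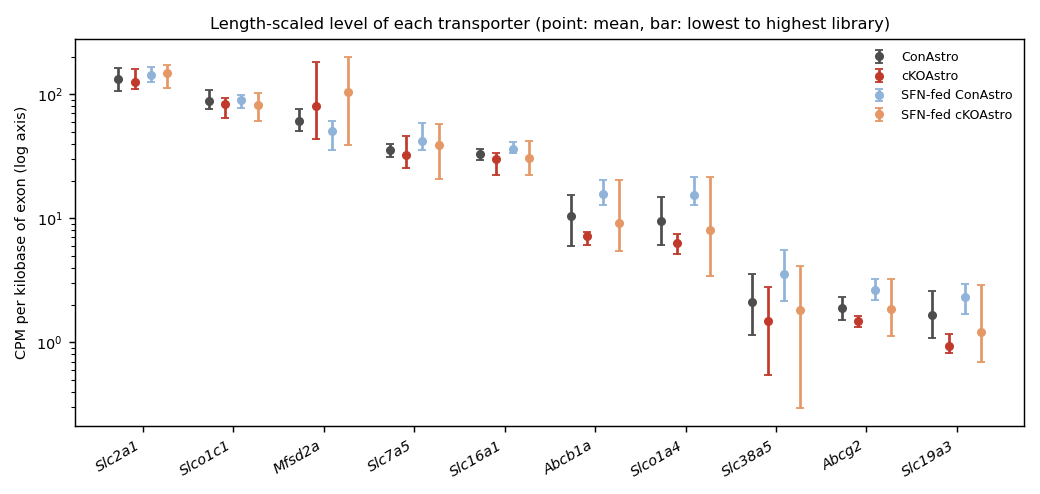
CPM per kilobase of exon (log axis) for each transporter, with 1 point for the mean of each group and a bar from its lowest to its highest library. Slc2a1 stood highest in ConAstro at 133 CPM per kilobase and Slc19a3 lowest at 1.65.

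Slc19a3, which brings the vitamin thiamine into cells, was at 3.33, 3.74, 5.17 and 8.01 CPM in the 4 ConAstro libraries. In cKOAstro it ran from 2.50 to 3.59 CPM with a median of 2.84. The groups overlapped, since ConAstro replicate 1 lay below the highest cKOAstro library. On the sulforaphane diet, the ConAstro libraries held 7.02, 7.55, 5.21, 9.06 and 6.92 CPM. SFN-fed cKOAstro libraries ran from 2.12 to 8.85 CPM with a median of 2.83, and their replicate 3, at 8.85 CPM, was the one that reached into the range of SFN-fed ConAstro. Slc19a3 had 212 to 1167 counts per library, and of the other members Slc38a5 had similarly few, at 74 to 1371.

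The 2 organic anion carriers differed from each other. Slco1a4, a bile salt and drug carrier, was at 39.1, 54.9, 55.6 and 94.6 CPM in ConAstro and between 32.9 and 48.3 CPM in cKOAstro, with a median of 40.6. SFN-fed ConAstro libraries held 85.4, 87.8, 82.7, 138 and 101 CPM, and SFN-fed cKOAstro libraries ran from 22.1 to 138 CPM with a median of 35.6. Again SFN-fed cKOAstro replicate 3 was the highest of its group and overlapped SFN-fed ConAstro. Slco1c1 spread far less: every library lay between 313 and 558 CPM, and all 4 groups overlapped.

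The efflux pumps followed the pattern of Slco1a4. Abcb1a was at 33.0, 44.0, 67.3 and 84.3 CPM in ConAstro and between 33.3 and 42.6 CPM in cKOAstro (median 39.5). It was at 85.2, 84.3, 70.6, 112 and 77.4 CPM in SFN-fed ConAstro and between 29.6 and 111 CPM in SFN-fed cKOAstro (median 42.5). The cKOAstro libraries were closely spaced, at 39.1 ± 3.21 CPM (SD, n = 7), and the ConAstro libraries were not, at 57.1 ± 23.1 CPM (SD, n = 4). Abcg2 was at 12.2, 14.2, 16.8 and 18.8 CPM in ConAstro and between 10.9 and 13.2 CPM in cKOAstro (median 12.2). SFN-fed ConAstro libraries held 23.7, 20.2, 18.0, 26.3 and 19.0 CPM of Abcg2 and SFN-fed cKOAstro libraries between 9.20 and 26.2 CPM (median 12.6).

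Of the amino acid carriers, Slc38a5 was the most variable of all 10 genes, with its highest library 18.9 times its lowest. It was at 2.58, 3.53, 5.01 and 7.96 CPM in ConAstro and between 1.22 and 6.23 CPM in cKOAstro (median 3.40). SFN-fed ConAstro libraries held 12.5, 4.86, 5.09, 10.3 and 6.96 CPM, the first of them in the library against its label, and SFN-fed cKOAstro libraries between 0.661 and 9.28 CPM (median 1.99). Slc7a5 lay between 76.2 and 215 CPM over all libraries, with overlap of all 4 groups. The same held for the fuel carriers, with Slc2a1 between 375 and 606 CPM and Slc16a1 between 98.1 and 185 CPM, the narrowest spans beside Slco1c1.

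Mfsd2a did not share the pattern of Slc19a3, Slco1a4, Abcb1a and Abcg2. It was at 137, 121, 173 and 114 CPM in ConAstro and at 137, 80.4, 113, 130 and 106 CPM in SFN-fed ConAstro. In cKOAstro it ran from 98.3 to 409 CPM (median 116), and in SFN-fed cKOAstro from 87.8 to 449 CPM (median 180). The high values sat in 5 libraries: cKOAstro replicates 2 and 4, at 409 and 301 CPM, and SFN-fed cKOAstro replicates 5, 2 and 6, at 449, 341 and 316 CPM. No other library held more than 180 CPM. Of these 5, all but SFN-fed cKOAstro replicate 2 carried an Astro name, and that replicate is the one whose Aldh7a1 level went against its label. The Astro-named SFN-fed cKOAstro replicate 4 held 87.8 CPM. Summed microglia markers in the same 5 libraries were at 489, 493, 362, 409 and 372 CPM, against a range of 647 to 3992 CPM over the other 18 libraries. The part of library series or other cells in the Mfsd2a values was not tested.

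**Figure D2:**
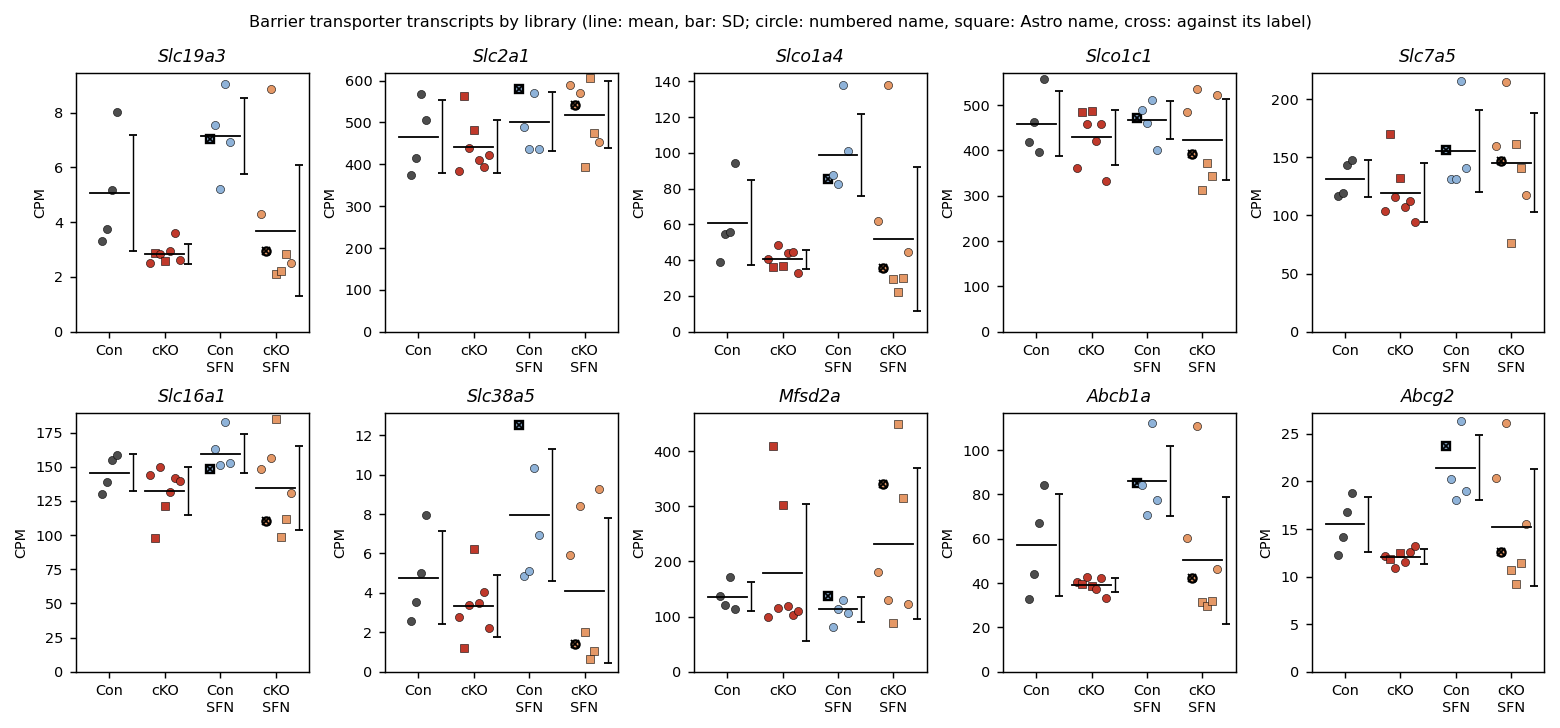
CPM of each transporter (linear axis from 0) in the 23 libraries by group, with the mean as a line and the SD as a bar. Squares mark Astro-named libraries and crosses the 2 libraries against their labels. The cKOAstro libraries of Slc19a3 sit between 2.50 and 3.59 CPM, and 5 libraries of Mfsd2a stand at 301 CPM or more.

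The first comparison asks what the deletion goes with on the control diet. Of the 10 transporters, 9 had lower fitted levels in cKOAstro than in ConAstro and Mfsd2a had a higher one, and none passed an adjusted p of 0.05 in edgeR's quasi-likelihood test (adjusted p = 0.981 for each). Log2 fold changes were −0.83 ± 0.21 (SE) for Slc19a3, −0.60 ± 0.19 for Slco1a4, −0.55 ± 0.19 for Abcb1a, −0.52 ± 0.39 for Slc38a5 and −0.36 ± 0.11 for Abcg2. They were −0.15 ± 0.14 for Slc7a5, −0.15 ± 0.11 for Slc16a1, −0.10 ± 0.12 for Slco1c1, −0.08 ± 0.13 for Slc2a1 and 0.39 ± 0.42 for Mfsd2a. Over all genes tested, 0.023% passed the adjusted threshold, 3.74% had an unadjusted p under 0.05 and 0.494% had groups that did not overlap in CPM. Slc19a3, Slco1a4, Abcb1a and Abcg2 had an unadjusted p under 0.05, and none of the 10 had groups that did not overlap. Since the members were chosen with this contrast known, nothing is read from those counts.

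Endothelial markers lay in the same direction as most of these values. Of the 22 markers, 21 had lower fitted levels in cKOAstro, with a median of −0.34, against −0.25 over the 10 transporters and −0.0072 over all genes. Of the other lists, 13 of 14 mural markers were higher (median 0.18), and so were 9 of 10 neuron markers (median 0.33). The medians were 0.14 for fibroblast, −0.24 for microglia and −1.68 for choroid plexus markers. None of these marker genes passed the adjusted threshold. A single library set much of this: without ConAstro replicate 4, which held 1044 CPM of summed endothelial markers, the endothelial median was −0.07, and without ConAstro replicate 1, which held 441 CPM, it was −0.54. Without replicate 4, Slc19a3 was at −0.52, Slco1a4 at −0.31, Abcb1a at −0.30, Abcg2 at −0.25 and Slc38a5 at −0.16. Without replicate 1, Slc19a3 was at −0.99, Slco1a4 at −0.76, Abcb1a at −0.74 and Abcg2 at −0.46. The Mfsd2a value was 0.05 without cKOAstro replicate 2 and −0.32 among numbered libraries. Among numbered libraries all 10 transporters and 22 of 22 endothelial markers had lower fitted levels in cKOAstro, with an endothelial median of −0.42. The part of endothelial content in the transporter values was not tested in this fit.

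The second comparison sets the same genotypes side by side on the sulforaphane diet. Here too no transporter passed the adjusted threshold in edgeR's quasi-likelihood test, in which the adjusted p was at least 0.195 for every one of the 10. Log2 fold changes of SFN-fed cKOAstro against SFN-fed ConAstro were −0.96 ± 0.33 (SE) for Slc19a3, −0.94 ± 0.39 for Slco1a4, −0.96 ± 0.61 for Slc38a5, −0.77 ± 0.30 for Abcb1a and −0.50 ± 0.24 for Abcg2. Mfsd2a was at 1.02 ± 0.37, and Slc2a1, Slco1c1, Slc7a5 and Slc16a1 lay between −0.25 and 0.04. Over all 16672 genes 0.0% passed the adjusted threshold, while 20.3% had an unadjusted p under 0.05, and 1.23% had groups that did not overlap. Among the members, Slc19a3, Slco1a4, Mfsd2a and Abcb1a had an unadjusted p under 0.05, and no member had groups that did not overlap. Endothelial markers were lower in 21 of 22 cases, with a median of −0.65. Markers of other cell types lay lower as well: 13 of 14 for mural cells (median −0.48), 6 of 6 for fibroblasts (−0.69), 12 of 12 for microglia (−0.49), 5 of 5 for oligodendrocyte precursors (−0.55) and 8 of 8 for choroid plexus (−2.09). Oligodendrocyte markers were higher in 9 of 10 cases (0.26), neuron markers higher in 7 of 10 (0.05) and astrocyte markers lower in 5 of 10 (−0.01). None of these genes passed the adjusted threshold.

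Which genes passed in this comparison changed when 1 library was left out, and also with the method, as given under the processing below. Without SFN-fed cKOAstro replicate 3, which held 1330 CPM of summed endothelial markers, 3 members and 701 genes in all passed the adjusted threshold in edgeR. Slc19a3 was then at −1.34 (adjusted p = 0.0203), Slco1a4 at −1.41 (adjusted p = 0.0258) and Abcb1a at −1.09 (adjusted p = 0.0273). Without the libraries against their labels, 0 members passed, and Slc19a3 was at −0.92, Slco1a4 at −0.91, Abcb1a at −0.74, Abcg2 at −0.42, Slc38a5 at −0.59 and Mfsd2a at 0.99. Among numbered libraries without those 2, a choice made after seeing the data, the values were closer to 0: −0.47 for Slc19a3, −0.34 for Slco1a4, −0.27 for Abcb1a, −0.03 for Abcg2, 0.20 for Slc38a5 and 0.41 for Mfsd2a. The endothelial median was −0.16 in that fit.

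The diet comparisons ask what sulforaphane feeding goes with in each genotype. In SFN-fed ConAstro against ConAstro, 9 of 10 transporters had higher fitted levels, with Slc38a5 at 0.72 and Slco1a4 at 0.69, and Mfsd2a was at −0.28. Without the SFN-fed ConAstro library against its label, Slc38a5 was at 0.50, Slco1a4 at 0.74 and Mfsd2a at −0.35. None passed the adjusted threshold in edgeR (lowest adjusted p = 0.762), and neither did any gene (0.0%). Slco1a4, Abcb1a and Abcg2 had an unadjusted p under 0.05, as did 6.54% of all genes, and 1.93% of all genes but no member had groups that did not overlap. The endothelial markers were higher in 22 of 22 cases, with a median of 0.56 against 0.34 over the transporters. In the same comparison 14 of 14 mural markers (median 0.34) and 6 of 6 fibroblast markers (0.45) were higher. So were 12 of 12 microglia (0.17), 5 of 5 oligodendrocyte precursor (0.23) and 9 of 10 neuron markers (0.26). Choroid plexus markers were lower in 6 of 8 cases (−0.16), and none of these genes passed the adjusted threshold. Slc19a3 was at 0.49 in this comparison, at 0.79 without ConAstro replicate 4 and at 0.33 without ConAstro replicate 1. In SFN-fed cKOAstro against cKOAstro, 9 of 10 transporters had higher fitted levels, between 0.03 for Slc16a1 and 0.37 for Mfsd2a, and Slco1c1 was at −0.02. Their median was 0.31 and that of the endothelial markers 0.32. No gene passed the adjusted threshold there (0.0%), no member had an unadjusted p under 0.05 (10.9% of all genes) and none had groups that did not overlap (0.0947% of all genes). Without SFN-fed cKOAstro replicate 3, the Slc19a3 value in this comparison was 0.0023, down from 0.37, Slco1a4 was at −0.10 and Abcb1a at 0.06. Without the library against its label, Slc19a3 was at 0.41 and Slco1a4 at 0.43. Among numbered libraries also without it, a choice made after seeing the data, Slc19a3 was at 0.84 and the endothelial median at 0.86. In that edgeR fit 9 of the 10 members had an unadjusted p under 0.05 and 0 an adjusted one. The share of all genes with an unadjusted p under 0.05 was not taken for that fit, so nothing is read from this count. Mural markers, in the comparison of all libraries, were lower in 12 of 14 cases (median −0.39) and oligodendrocyte markers higher in 10 of 10 (0.31).

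Set against ConAstro on the control diet, SFN-fed cKOAstro had a log2 fold change of −0.48 for Slc19a3, 0.75 for Mfsd2a and between −0.25 and 0.14 for the other 8. Slc19a3 was at −0.85 without SFN-fed cKOAstro replicate 3, at −0.15 without ConAstro replicate 4 and at −0.42 without the library against its label. Among numbered libraries also without that one, Slc19a3 was at 0.02 and Mfsd2a at 0.06. No gene passed the adjusted threshold (0.0%), and no member had an unadjusted p under 0.05 or groups that did not overlap, against 8.67% and 1.45% of all genes. The test of whether the genotype difference itself differed between diets gave −0.13 for Slc19a3, −0.44 for Slc38a5 and 0.64 for Mfsd2a. Leaving out 1 library at a time, Slc19a3 lay between −0.51, when SFN-fed cKOAstro replicate 3 was dropped, and 0.02, when ConAstro replicate 1 was. Slc38a5 lay between −0.80 (ConAstro replicate 4 dropped) and −0.22 (SFN-fed ConAstro replicate 1 dropped), and Mfsd2a between 0.39 (SFN-fed cKOAstro replicate 5 dropped) and 0.98 (cKOAstro replicate 2 dropped). Without both libraries against their labels the 3 values were −0.09, −0.07 and 0.61, and among numbered libraries also without those 0.34, 0.79 and 0.75. No gene passed the adjusted threshold for this interaction (0.0%), and no member had an unadjusted p under 0.05 (7.32% of all genes). The comparisons of pairs of groups share libraries with one another, so their values are not independent.

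**Figure D3:**
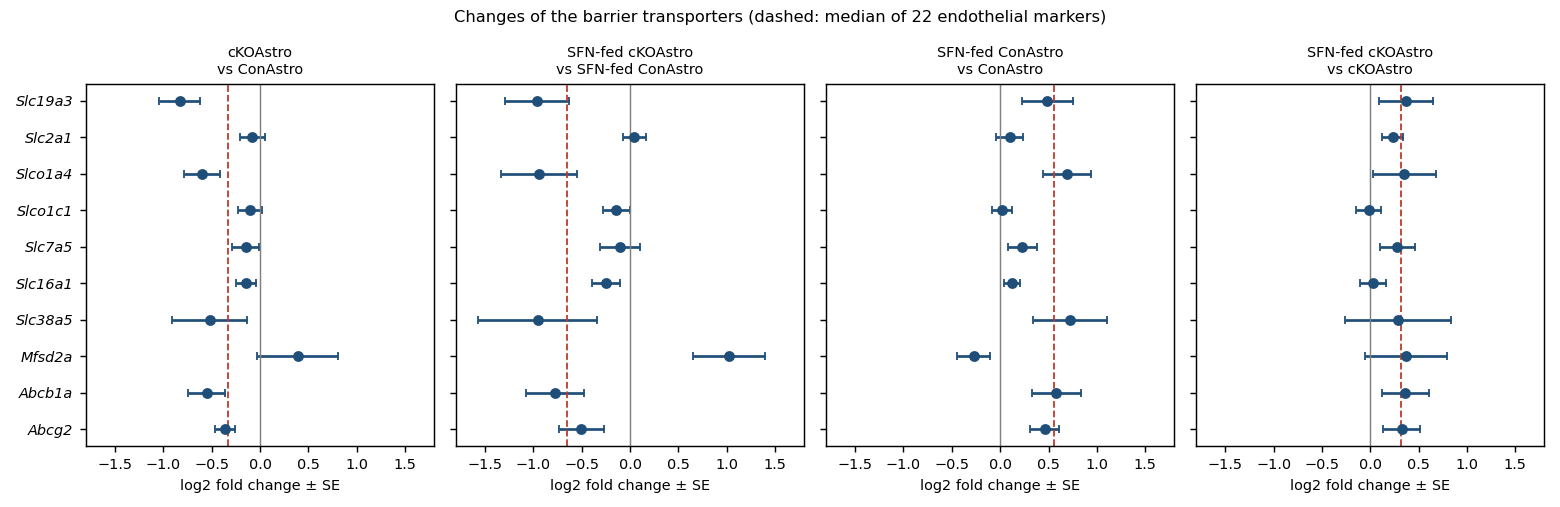
Log2 fold change ± SE of each transporter in 4 comparisons, with the median of the 22 endothelial markers as a dashed line. In cKOAstro against ConAstro the dashed line is at −0.34 and Slc19a3 at −0.83. Mfsd2a lies on the other side of 0 from the dashed line in the first 3 panels.

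Across the 23 libraries, irrespective of group, most transporters went up and down with the endothelial markers. Over the 23 libraries, Pearson's r of log2 CPM with the mean log2 CPM of the 22 markers was 0.976 for Abcb1a, 0.953 for Slco1a4, 0.940 for Abcg2 and 0.933 for Slc19a3 (Spearman's rho 0.933, 0.909, 0.841 and 0.851). Each of these had a two-sided permutation p of 1e-05, the smallest that 100000 permutations can give, and an adjusted p of 2.5e-05 over the 10 genes. Slc38a5 (r = 0.770, rho = 0.827), Slco1c1 (0.719, 0.779) and Slc7a5 (0.697, 0.606) followed, with adjusted permutation p-values for r of 6e-05, 0.000183 and 0.000243. Slc16a1 (r = 0.532, rho = 0.563) and Slc2a1 (0.499, 0.527) came lowest of those past the threshold (adjusted permutation p for r = 0.0115 and 0.0182). Mfsd2a did not pass (r = −0.259, permutation p = 0.233, rho = −0.032, permutation p = 0.887). The members had been selected as transporters of brain endothelium, so correlation with endothelial markers was likely from the start. The share of all genes passing this test was not taken, so nothing is read from the number of members that passed.

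Leaving out the 2 libraries farthest from the median endothelial level, SFN-fed ConAstro replicate 4 and SFN-fed cKOAstro replicate 3, r was 0.963 for Abcb1a, 0.927 for Slco1a4, 0.907 for Abcg2 and 0.905 for Slc19a3. Slc2a1 (r = 0.380, adjusted permutation p = 0.100) and Slc16a1 (r = 0.426, adjusted permutation p = 0.0663) no longer passed by r, while both still passed by rho (0.455 and 0.484, adjusted permutation p = 0.0435 and 0.0358). After each group was centred on its own mean, r was 0.963 for Abcb1a and 0.922 for Slc19a3, and Slc16a1 did not pass (r = 0.356, adjusted permutation p = 0.240). Among the 17 numbered libraries r was 0.977 for Abcb1a and 0.928 for Slc19a3. Among the 6 Astro-named libraries, where no p was computed, it was 0.970 and 0.923. Without the libraries against their labels r was 0.975 and 0.929. The libraries share their kind of sorting but not their depth, with total counts from 46890715 to 391701247. Several markers share a cell type with the transporters.

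The markers of other cell types were read in the same way. For Abcb1a, r with fibroblast markers was 0.612, with mural cell markers 0.448, with microglia markers 0.398 and with astrocyte markers 0.264. Slco1c1 had an r of 0.654 with astrocyte markers beside 0.719 with endothelial ones, and Slc7a5 had 0.583 beside 0.697. For Slc16a1, r with oligodendrocyte precursor markers (0.548) and microglia markers (0.540) was as high as with endothelial ones (0.532). Mfsd2a had its most negative values with oligodendrocyte precursor markers (−0.751) and microglia markers (−0.718). Among the members, its r was −0.834 with Slc16a1, 0.565 with Slc2a1 and 0.432 with Slc7a5. These values are descriptions over 23 libraries with no test.

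**Figure D4:**
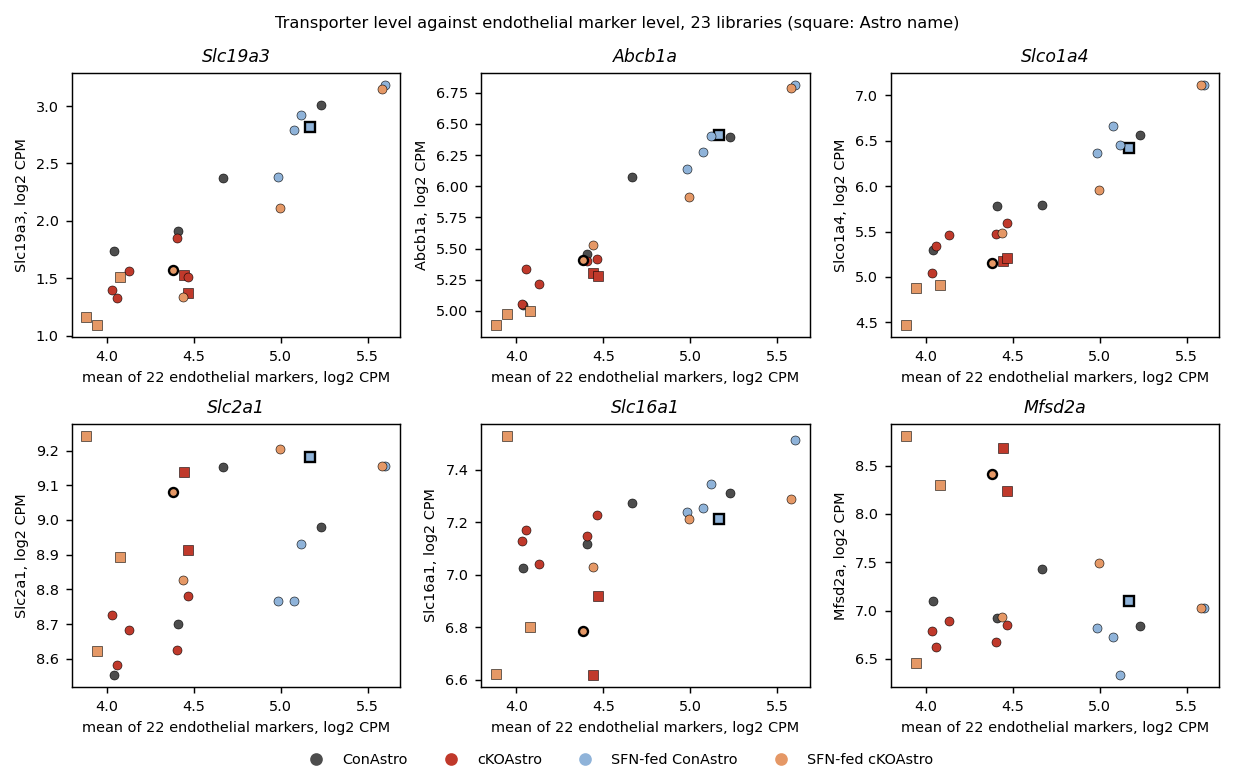
Log2 CPM of 6 transporters against the mean log2 CPM of 22 endothelial markers, 1 point per library, coloured by group (squares: Astro names; heavy outlines: libraries against their labels). Points of Abcb1a fall along a line (r = 0.976), those of Slc19a3 along 1 with cKOAstro libraries low (r = 0.933), and those of Mfsd2a along none (r = −0.259).

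Each transporter was also expressed relative to the endothelial markers, by subtracting their mean log2 CPM from its own in each library. For the 4 genes that followed the markers most closely this took away most of the spread: the SD over 23 libraries was 0.15 in place of 0.61 for Abcb1a, 0.19 in place of 0.44 for Abcg2, 0.28 in place of 0.73 for Slco1a4 and 0.27 in place of 0.69 for Slc19a3. For Slc38a5 the SD was 0.79 in place of 1.12. The other members spread more on this scale than before. The SD was 0.46 in place of 0.23 for Slc2a1, 0.45 in place of 0.24 for Slc16a1 and 0.39 in place of 0.23 for Slco1c1. It was 0.38 in place of 0.35 for Slc7a5 and 1.00 in place of 0.73 for Mfsd2a.

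On this relative scale Slc19a3 was the member whose genotype groups stood apart on the control diet. It was at −2.30, −2.50, −2.29 and −2.23 (log2) in ConAstro and between −3.09 and −2.55 in cKOAstro, so the groups did not overlap. The means were −2.33 ± 0.12 (SD, n = 4) and −2.78 ± 0.21 (SD, n = 7), a difference of −0.45. Of the 17302 genes compared, 0.0116% were lower in cKOAstro without overlap on this scale, 2 genes with Slc19a3 among them, and 0.468% were higher. Endothelial markers were lower in cKOAstro (median −0.34), so subtracting them raised relative levels there. The part of this in the shares above was not tested. Both the gene and the scale were chosen with the data in view, so nothing is read from these shares. On the sulforaphane diet the means of Slc19a3 were −2.37 ± 0.15 (SD, n = 5) and −2.77 ± 0.22 (SD, n = 7), a difference of −0.40. SFN-fed ConAstro libraries were at −2.35, −2.20, −2.60, −2.42 and −2.28 and SFN-fed cKOAstro libraries between −3.10 and −2.43, so these groups overlapped. The difference was −0.38 without the libraries against their labels, and −0.36 (control diet) and −0.43 (sulforaphane diet) among numbered libraries also without them. With any single library left out it lay between −0.50 and −0.39 on the control diet and between −0.45 and −0.34 on the sulforaphane diet. Between diets, the relative level of Slc19a3 differed by −0.04 in mice without Cre and by 0.01 in mice with it. No test was made of these differences, since Slc19a3 was chosen with its genotype contrast known.

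Of the other close followers, Abcb1a differed between genotypes by −0.16 on the control diet and −0.19 on the sulforaphane diet, Abcg2 by −0.04 and 0.14, and Slco1a4 by −0.23 and −0.46, the last being larger in size than that of Slc19a3 on that diet. Every one of these 3 overlapped between genotypes on both diets. Without the libraries against their labels, the sulforaphane-diet differences were −0.18 for Abcb1a, 0.20 for Abcg2 and −0.47 for Slco1a4. Between the sulforaphane-fed groups, Slc7a5 was higher in the mice with Cre, without overlap on this scale (a difference of 0.59), although the nearest libraries of the groups were at 2.17 and 2.15. The difference was 0.58 without the libraries against their labels and 0.26 among numbered libraries also without them. There 0.104% of all genes were higher in this way and 0.0116% lower. The CPM of Slc7a5 itself overlapped between these groups. Before the subtraction its fitted level was lower in the mice with Cre, at −0.10 ± 0.21 (SE), beside an endothelial median of −0.65.

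**Figure D5:**
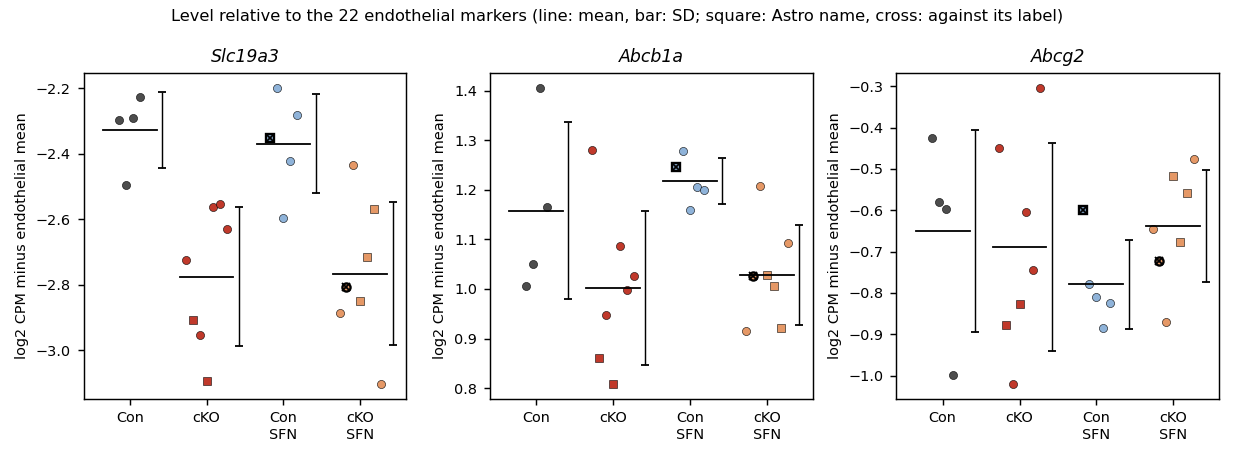
Log2 CPM of Slc19a3, Abcb1a and Abcg2 minus the mean log2 CPM of 22 endothelial markers, by group, with the mean as a line and the SD as a bar (squares: Astro names; crosses: libraries against their labels). The ConAstro libraries of Slc19a3 lie at −2.50 or above and the cKOAstro libraries at −2.55 or below.

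The remaining genes of barrier transport and of thiamine use were read from lists drawn up with earlier results known. Of 22 other barrier transporters, 18 had lower and 4 higher fitted levels in cKOAstro than in ConAstro (median −0.15), from −0.59 for the zinc and manganese carrier Slc39a8 to 0.16 for the creatine carrier Slc6a8. On the sulforaphane diet 16 were lower and 6 higher (median −0.25), from −0.96 for the monocarboxylate carrier Slc16a4 to 0.48 for Slc6a8. Of 12 other thiamine genes, which include the transporters Slc19a2 and Slc19a1 and thiamine-dependent enzymes such as Tkt and Ogdh, 4 were lower and 8 higher in cKOAstro (median 0.03). Slc19a2, the other high-affinity thiamine carrier, was the lowest of them at −0.25. On the sulforaphane diet 3 of the 12 were lower and 9 higher (median 0.07). No gene of either list passed the adjusted threshold in any comparison, and the difference between these lists and Slc19a3 was not tested.

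The genes most like Slc19a3 over the 23 libraries, by Pearson's r of log2 CPM among 14181 genes with a mean of at least 1 CPM, were Abcb1a (0.956), Kitl (0.952), Tie1 (0.951), Slco1a4 (0.949) and Arhgef15 (0.946). Abcb1a and Slco1a4 are fellow transporters, and Tie1, an endothelial receptor, is among the 22 markers.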

How the data were processed

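RNA of ACSA-2-captured cortical cells from 23 mice (1 library each) was measured. The deposited table holds raw read counts per gene symbol, made by the authors. The submitters' processing notes name FastQC, STAR and the mm10 genome, and the study's methods give STAR's per-gene counts (GeneCounts) as the counts used. The annotation and the strand column are not given in the sources used here. Symbols were matched to GENCODE M21 (23376 of 24411). Counts were normalised by TMM and tested by edgeR 4.0.16 quasi-likelihood (R 4.3.3) in fits of the compared groups only, and of all groups for the interaction, after a filter (minimum count 10, minimum total 15). P-values were adjusted by Benjamini-Hochberg over all genes, with a threshold of 0.05, and measure the spread between mice. Log2 CPM used a prior count of 2, and correlations used 100000 permutations (Python 3.11.15). Alternatives were limma-voom 3.58.1 with quality weights, DESeq2 1.42.0, RLE scaling, no filter, all groups in 1 fit, a replicate block, the name series, and leaving out libraries. Scripts were tested on simulated data.

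The 10 members and all gene lists were chosen with earlier results of these data known. Named genes were the members, the extremes of each list, the label checks Aldh7a1 and Slc1a3, and the 5 genes most correlated with Slc19a3. Xist and the genes most like Mfsd2a were named after their values were seen, and the scale relative to endothelial markers was chosen with the data in view. Slc1a3 was at 2100 CPM in replicate 1 labelled SFN-fed ConAstro and at 4436 CPM in replicate 2 labelled SFN-fed cKOAstro. No pair of libraries agreed within sampling noise (lowest chi-square per degree of freedom 42.4). Marker lists of neurons, fibroblasts, oligodendrocyte precursors, mural cells and red blood cells summed to 134 to 1217, 79.2 to 187, 80.1 to 294, 942 to 2662 and 0.501 to 18.5 CPM per library. The promoter of Slc7a5 was not analysed here.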

Additional observations from a re-analysis of the deposited data

Results flagged for a closer look

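Within each group, the highest and lowest library of each transporter was compared with its neighbours by Dixon's criterion, over 40 pairs of gene and group, where chance marks about 1 in 20. It marked 4 values. Slc19a3 in cKOAstro replicate 6 was at 3.59 CPM, with the next library at 2.95 CPM. The other 3 were in SFN-fed cKOAstro replicate 3, a library with 1330 CPM of summed endothelial markers against 399 to 849 CPM in the other 6 of its group. There Slc19a3 was at 8.85 CPM (next 4.30 CPM), Slco1a4 at 138 CPM (next 61.9 CPM) and Abcb1a at 111 CPM (next 60.1 CPM). Relative to the endothelial markers, Slc19a3 in that library was at −2.43 on the log2 scale, the highest of its group, whose next library was at −2.57. The part of endothelial content in these values was not tested.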

How the results depend on the processing

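No transporter passed the adjusted threshold in edgeR in any comparison, and the count of 0 held under every alternative but those given here, all in SFN-fed cKOAstro against SFN-fed ConAstro. There limma-voom with quality weights called 7 of the 10 (and 4398 of all genes), and DESeq2 called 0 of the 10 (and 367 of all genes). Leaving out 1 library at a time, edgeR called between 0 and 3, the highest number when SFN-fed cKOAstro replicate 3 was left out. In the numbered libraries without those against their labels, chosen after seeing the data, the median transporter change was 0.69 in SFN-fed cKOAstro against cKOAstro (from 0.31) and 0.34 for the interaction (from −0.12). The cause was not tested. Single transporter values kept their direction in 177 of 180 alternatives for cKOAstro against ConAstro and 212 of 220 for SFN-fed cKOAstro against SFN-fed ConAstro. They did so in 175 of 180 for SFN-fed ConAstro against ConAstro, 222 of 240 for SFN-fed cKOAstro against cKOAstro, 176 of 200 for SFN-fed cKOAstro against ConAstro and 288 of 310 for the interaction. Replicate numbers were not taken to pair the mice in the main fits. Correlations of same-numbered libraries ran from −0.21 to 0.34, and differently numbered libraries were not compared in this way, so pairing was not tested. With a replicate block 0 transporters passed in any comparison, and the median change was −0.30 for cKOAstro against ConAstro and −0.39 for SFN-fed cKOAstro against SFN-fed ConAstro. With 4 ConAstro mice, 1 of them high in endothelial markers, and with Slc19a3 and Slc38a5 at a few CPM, the size of any genotype difference is known only roughly. Whether these transporters differ between the genotypes at all is not settled by these fits.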

Other observations

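The genes whose log2 CPM went most closely with Mfsd2a over the 23 libraries, listed after seeing its values, were Gpt2 (r = 0.971), Cmtm3 (0.970), Kcnn2 (0.967), Smim3 (0.963) and Gatsl3 (0.962). None of them is in the transporter or marker lists. Gpt2, a mitochondrial alanine aminotransferase, was at 353, 334, 305, 275 and 217 CPM in the 5 libraries highest in Mfsd2a and between 97.8 and 235 CPM in the other 18. Among numbered libraries alone, r of Gpt2 with Mfsd2a was 0.955.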
